A study of Homo sapiens with 2 samples.

Results

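The 38 probes described here report the core histone genes of the replication-dependent clusters, 1 probe for each of 38 genes. They are part of the 58921 non-control probes used here. They comprised 12 H2A, 9 H2B, 10 H3 and 7 H4 genes. A probe was a member when its gene symbol, in the study's lists of transcripts that differed between the conditions, began with HIST and a cluster number followed by H2A, H2B, H3 or H4. All 38 stood among the 1002 rows used here of the list of higher mRNAs, and 0 stood among the 952 rows used of the list of lower mRNAs. Since those lists were ranked on the contrast described below, the direction and the size of every member's difference were used in choosing it, and they are given as a description that supports nothing. Core histone probes outside these rows were not analysed here.

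Both samples were SK-NEP-1, an established human cell line labelled as a kidney tumor (Wilms tumor) line. One culture received 100 nM LBH589 for 24 h and the other the same volume of DMSO, the solvent. LBH589 (panobinostat) is a hydroxamate inhibitor of several classes of histone deacetylase, the enzymes that take acetyl groups off histone tails. Total RNA was depleted of rRNA, amplified, labeled with Cy3 and hybridized to 1 Arraystar Human LncRNA array per condition.

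H2A, H2B, H3 and H4 together form the protein core around which DNA is wrapped in the nucleosome. Each is made from many small genes, mostly without introns, that are grouped in clusters on human chromosomes 6 and 1 and are used chiefly in S phase, when new DNA has to be packaged. Their mRNAs normally carry no poly(A) tail and end in a short conserved stem-loop, which the stem-loop binding protein SLBP holds during processing, translation and decay.

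With 1 array per condition there is no replicate, so no p-value can be given, and differences of culture, RNA preparation or labeling cannot be told apart from the treatment. In RNA from a whole culture, fewer cells of a kind and less RNA per cell cannot be told apart either. The arrays held 61184 spots each. Of the 58921 probes left without control probes and spots flagged as outliers, none was saturated. A probe is called detected where the scanner software flags its signal as well above background, which held for 66.0% of all probes after DMSO and 63.3% after LBH589. Each signal was set against the 75th percentile of its own array, a processed signal of 188.6 (DMSO) or 108.4 (LBH589). All differences are LBH589 minus DMSO of the log2 scaled signal. The error beside a difference combines the errors that the scanner software gives for both spots and leaves out the variation between cultures.

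The label of the line was set against marker genes as far as listed rows allow, since SK-NEP-1 is known to carry a gene fusion typical of Ewing sarcoma. None of 9 Wilms tumor and kidney precursor genes had a listed probe (0 of 9). Of 11 Ewing sarcoma marker genes, 3 had one, and their 4 probes (NKX2-2, CCND1 and both probes of CAV1) were all detected with DMSO, at signals from 290.0 to 77441, and lower with LBH589. Probes without a listed row carry no gene name here, so the remaining markers gave no reading. The part of cell identity in the histone differences was not tested.

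The stem-loop near the end of the mRNA was visible in many of the probes themselves, and 30-base stretches of probes are therefore shown. The stretch of HIST1H2BG is bases 17 to 46 of its 60-base probe, and that of HIST1H2BE is bases 31 to 60. Capitals mark the stem-loop, which was searched for as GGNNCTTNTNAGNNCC on the probe's sense strand. Of the 38 members, 22 held all 16 bases. A further 7 broke off inside it at the probe's end, with at least 8 of its bases, and 9 held none of it. Among 3913 other listed probes that name no core or H1 histone gene, 0 held the whole pattern and 8 held a broken-off beginning of it, against 3 whole and 2 broken off among 5 H1 probes. The 30-base windows are written 5′ to 3′, with HIST1H2BG and HIST1H2BE as the members with the largest and the smallest difference among those measured on both arrays, and the others as examples of each form.
HIST1H2BG: aaaactcaaaGGCTCTTTTCAGAGCCactc
HIST1H2BE: tagtaaacccaaaGGCTCTTTTCAGAGCCa
HIST1H2AH: ggaaaacaaaGGCTCTTTTCAGAGCCattc
HIST1H3G: aacttaaaaaGGCTCTTTTAAGAGCCgcct
HIST1H4E: ttcccaaatcaaaGGCCCTTTTCAGGGCCg
HIST1H3E: taaatccaaaGGCTCTTCTCAGAGCCaacc
HIST1H2AK: aaaccaaaaaGGTTCTTTTCAGAGCCacct
HIST1H2BI: agcgctaacgacccaaaGGCTCTTCTAAGA
HIST2H2BE: atgtgtgttttcaaatgtgtatagatgcta

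The form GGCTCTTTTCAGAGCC was shared by 14 members of the H2A, H2B and H3 types, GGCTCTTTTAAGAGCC by 4, and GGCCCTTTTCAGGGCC by the H4 genes HIST1H4E and HIST1H4F. The forms of HIST1H3E and HIST1H2AK occurred once each. The window of HIST1H2BI ended after 13 of the 16 bases and that of HIST2H2BE held none of it. HIST1H2BG and HIST1H2BE, at opposite ends of the range of measured differences, carried the same 16 bases, but at different places in the probe. More sequence followed the stem-loop in the HIST1H2BG probe, so the 2 probes do not cover the same stretch around it.

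Every core histone probe was higher on the LBH589 array. The median difference was 2.95, a 7.74-fold change, with a range from 1.77 to 4.91 and an SD over members of 0.69. All 38 were at least 2-fold higher, where 12.3% of the 41574 probes detected with DMSO, LBH589 or both were. At least 5-fold higher were 29, against 2.49% of all probes. Nothing is read from these shares, because the list fixed them. The counts also moved with the processing. At least 2-fold higher were 35 members after normexp and quantile normalization of the median pixel signal, against 2498 of the 41574 probes. Without scaling 37 members were, against 1802 probes, and with the median pixel signal 37, against 3719. At least 5-fold higher were 15 members without scaling, against 477 of the 41574 probes. Over all probes detected on both arrays the median was -0.035 and the 99th percentile 3.07. The error of a single member's difference ran from 0.20 to 1.02 with a median of 0.21, and the SD over members was larger than that median, so the members differed among themselves by more than the spot errors.

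**Figure D1:**
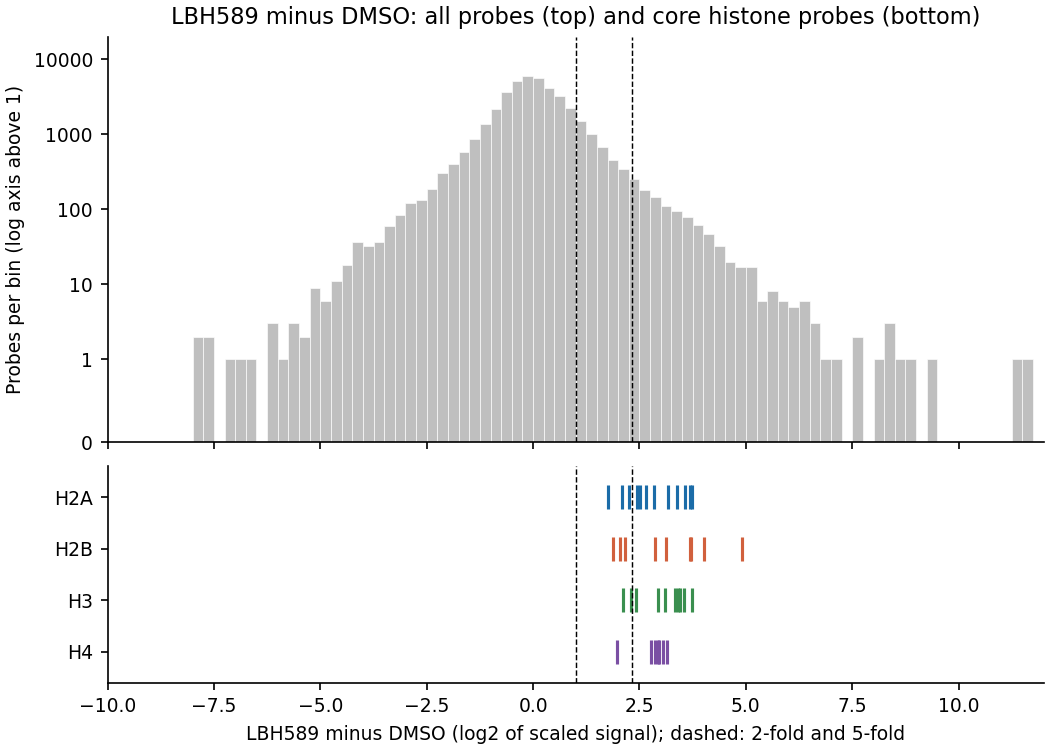
The upper panel counts all probes detected with DMSO, LBH589 or both by their LBH589 minus DMSO difference (log2 of scaled signal, bins of 0.25, count on a log axis above 1), and each mark in the lower panel is 1 core histone probe by type. All 38 marks lie to the right of the dashed 2-fold line, and 29 lie beyond the 5-fold line, between 2.41 and 4.91.

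On both arrays 34 members were detected. The other 4, HIST1H2AC, HIST1H2AE, HIST1H2AG and HIST1H4L, were not well above background with DMSO, and for these the difference is a lower bound, written "at least". The bound sets the LBH589 signal against the lowest signal of any detected probe of the DMSO array, 21.3. Over the 34 measured members the median difference was 3.08, and 26 of them were at least 5-fold higher, where 2.16% of the 34618 probes detected on both arrays were (2-fold: 34 of 34, against 11.6%). Each member had 1 spot per array, so no member has a second spot to set beside its value. Since binding strength differs between probes, the signals of different probes order them by brightness below and are not compared as mRNA levels.

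**Figure D2:**
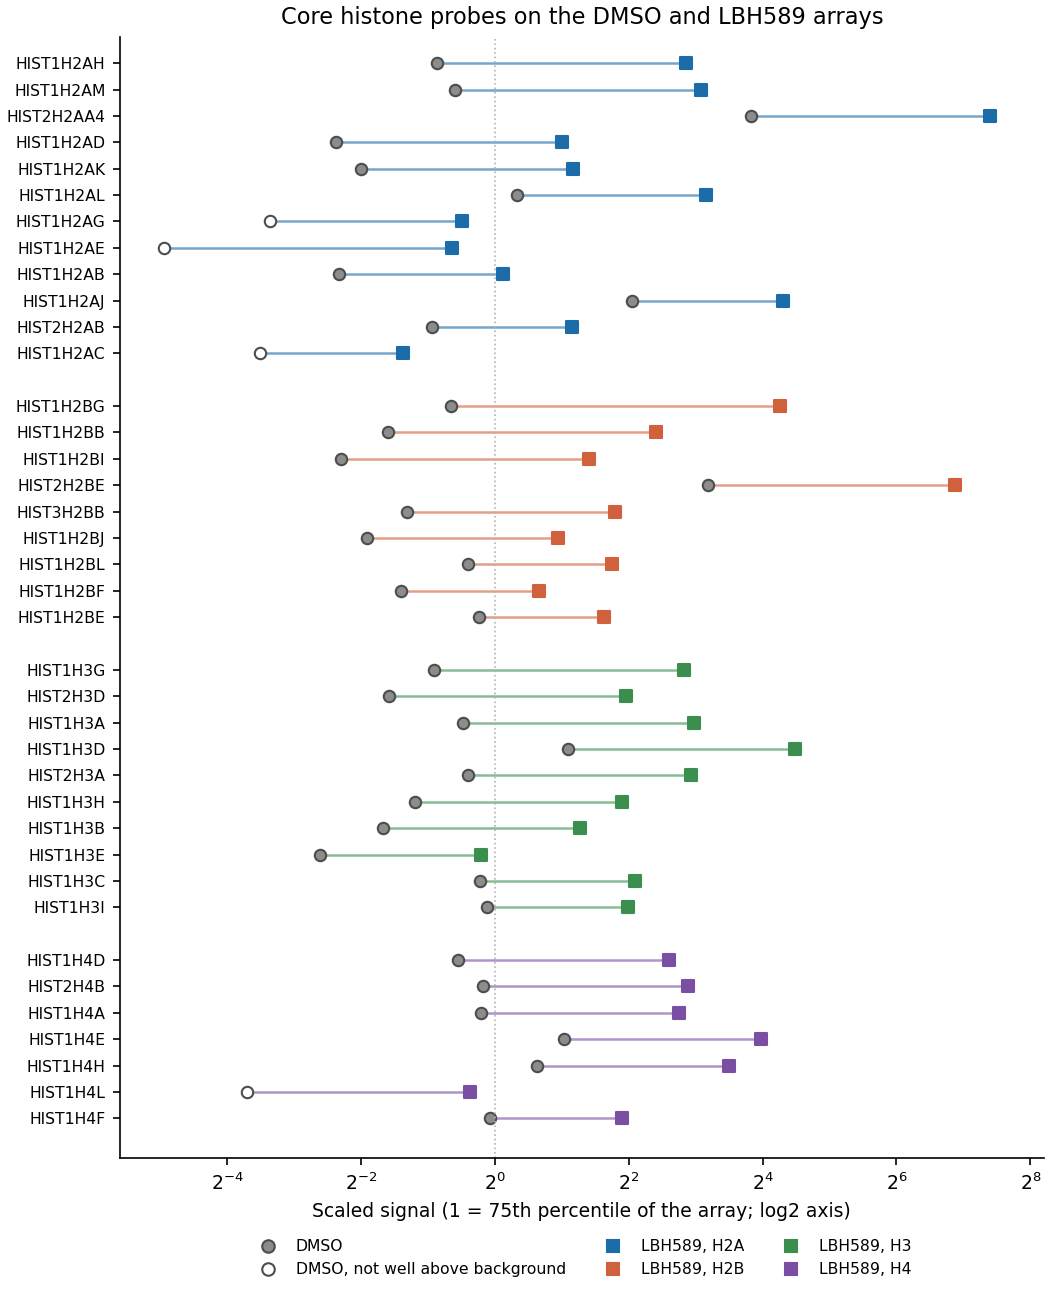
Scaled signal of each core histone probe on the DMSO array (circles) and the LBH589 array (squares), on a log2 axis where 1 is the 75th percentile of the array. Each line joins 1 probe, and the LBH589 square lies to the right for all 38; the 4 open circles were not well above background.

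H2A, the partner of H2B on the outer faces of the nucleosome core, was reported by 12 probes with a median difference of 2.74 (SD 0.66). HIST1H2AH rose from a processed signal of 103 with DMSO to 789 with LBH589, a difference of 3.73 ± 0.21 or 13.3-fold. HIST1H2AM rose from 125 to 920, a difference of 3.68 ± 0.21 or 12.8-fold. HIST2H2AA4 rose from 2664 to 18284, a difference of 3.58 ± 0.20 or 11.9-fold. These 3 lay within their errors of each other. HIST2H2AA4 is an H2A gene of the chromosome 1 cluster with a near-identical twin copy, HIST2H2AA3, from which a probe in shared sequence cannot separate it.

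At the lower end of the type, HIST1H2AJ went from 780 to 2153, a difference of 2.26 ± 0.20. HIST2H2AB went from 98.1 to 241, a difference of 2.10 ± 0.21, which is less by more than the errors than any of the first 3. HIST1H2AC went from 16.6 to 41.7 and was at least 3.40-fold higher. HIST1H2AG (18.5 to 77.2) and HIST1H2AE (6.14 to 69.5) were at least 6.30-fold and at least 5.68-fold higher. The 4 members between, HIST1H2AD, HIST1H2AK, HIST1H2AL and HIST1H2AB, differed by 3.37, 3.17, 2.83 and 2.45.

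H2B, which pairs with H2A in the dimer that is loaded last onto a nucleosome, had the widest spread, with a median of 3.11 and an SD of 1.02 over 9 probes. HIST1H2BG rose from 120 to 2073, a difference of 4.91 ± 0.21 or 30.1-fold, and HIST1H2BB from 62.6 to 578, a difference of 4.0 ± 0.23 or 16.1-fold. HIST1H2BI rose from 38.3 to 287, a difference of 3.70 ± 0.26. HIST1H2BG exceeded HIST1H2BB, the next of the members measured on both arrays, by 0.91 ± 0.31.

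HIST2H2BE, an H2B gene of chromosome 1 that can also give a longer polyadenylated mRNA, went from 1711 to 12654, a difference of 3.69 ± 0.20. Its listed transcript is 2223 bases long and its probe holds no stem-loop, and which form the probe reports was not tested. HIST3H2BB and HIST1H2BJ differed by 3.11 and 2.86. The 3 lowest of the type were HIST1H2BL (143 to 363, difference 2.15 ± 0.21), HIST1H2BF (71.5 to 171, 2.05 ± 0.22) and HIST1H2BE (160 to 336, 1.87 ± 0.21). Those 3 lay within their errors of each other. HIST1H2BE and HIST1H2AC had the lowest places of all members in the list of higher mRNAs, and members just beyond them were not analysed here.

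H3, whose N-terminal tail is a well known target of acetylation, had 10 probes with a median of 3.21 (SD 0.57). HIST1H3G rose from 101 to 769, a difference of 3.73 ± 0.21 or 13.3-fold. HIST2H3D rose from 63.0 to 422, a difference of 3.54 ± 0.23, and HIST1H3A from 136 to 851, a difference of 3.45 ± 0.21. HIST1H3D, HIST2H3A, HIST1H3H and HIST1H3B followed at 3.40, 3.33, 3.1 and 2.94. HIST1H3E (30.8 to 94.0) differed by 2.41 ± 0.29, HIST1H3C (162 to 462) by 2.31 ± 0.21 and HIST1H3I (174 to 430) by 2.11 ± 0.21. The upper 7 and the lower 3 were separated by a gap of values from 2.41 to 2.94. The array's HIST1H3D transcript is spliced, and it starts beside HIST1H2AD and overlaps it on the same strand. HIST2H3A is listed on the minus strand but stands on the plus strand in RefSeq. Whether its probe separates it from other copies was not tested.

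H4, the partner of H3 in the tetramer at the centre of the nucleosome, was the most even type, with a median of 2.93 and an SD of 0.39 over 7 probes. HIST1H4D went from 128 to 656, a difference of 3.15 ± 0.21 or 8.89-fold. HIST2H4B went from 166 to 799, a difference of 3.06 ± 0.21, and HIST1H4A from 164 to 732, a difference of 2.96 ± 0.21. HIST1H4E (387 to 1700) and HIST1H4H (291 to 1222) differed by 2.93 ± 0.20 and 2.87 ± 0.21, and HIST1H4L (14.4 to 83.5) was at least 6.82-fold higher. Apart from the bound, these 5 lay between 2.87 and 3.15. HIST1H4F went from 180 to 404, a difference of 1.97 ± 0.21 or 3.91-fold, and stood apart below the rest of the type. Nearly all H4 genes encode the same protein, and HIST2H4B has a twin copy, HIST2H4A, in the same cluster.

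The ranges of the types overlapped, and their medians spanned 2.74 to 3.21. Whether the types differ was not tested. Over members measured on both arrays the medians were 3.17 for H2A (n = 9), 3.11 for H2B (n = 9), 3.21 for H3 (n = 10) and 2.95 for H4 (n = 6). The lower H2A median over all 12 probes thus rested on the 3 probes that give only a bound. With normexp background correction of the median pixel signal followed by quantile normalization, the order changed, with H4 highest at 2.54 and H2A lowest at 2.04. Members of each type lay below 2.2, and members of each except H4 lay above 3.7.

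**Figure D3:**
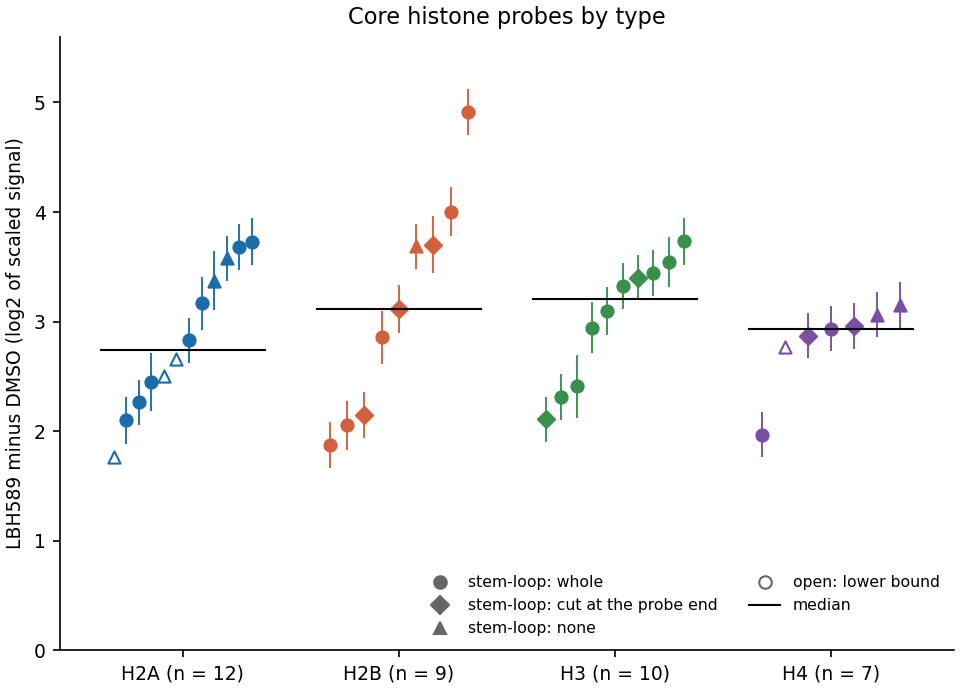
LBH589 minus DMSO of the log2 scaled signal for each core histone probe, by type, with spot errors as bars and the type median as a black line; open symbols are lower bounds and the symbol shape gives the state of the stem-loop in the probe. The medians lie between 2.74 and 3.21 while single H2B probes run from 1.87 to 4.91.

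The relation of the difference to signal depended on which signal was used. Against the DMSO signal, Spearman's rho was 0.06 and Pearson's r 0.18 over the 38 members, and rho was -0.13 and r 0.03 over the 34 measured ones. These are descriptions over probes of 2 arrays, and the DMSO signal is also part of the difference, so that the axes are not independent. Against the mean log2 signal of both arrays rho was 0.35, and against the LBH589 signal, likewise part of the difference, it was 0.51 (n = 38). Among the 17 measured members with the brighter DMSO signals the median was 2.93, and among the 17 dimmer ones it was 3.17. HIST2H2AA4 and HIST2H2BE, the 2 brightest on the DMSO array, differed by 3.58 and 3.69, as did much dimmer probes such as HIST1H2BI at 3.70. The signals on the 2 arrays followed each other over members, with r of 0.93 on the log2 scale. The GC content of the probe gave a rho of -0.09 with the difference.

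**Figure D4:**
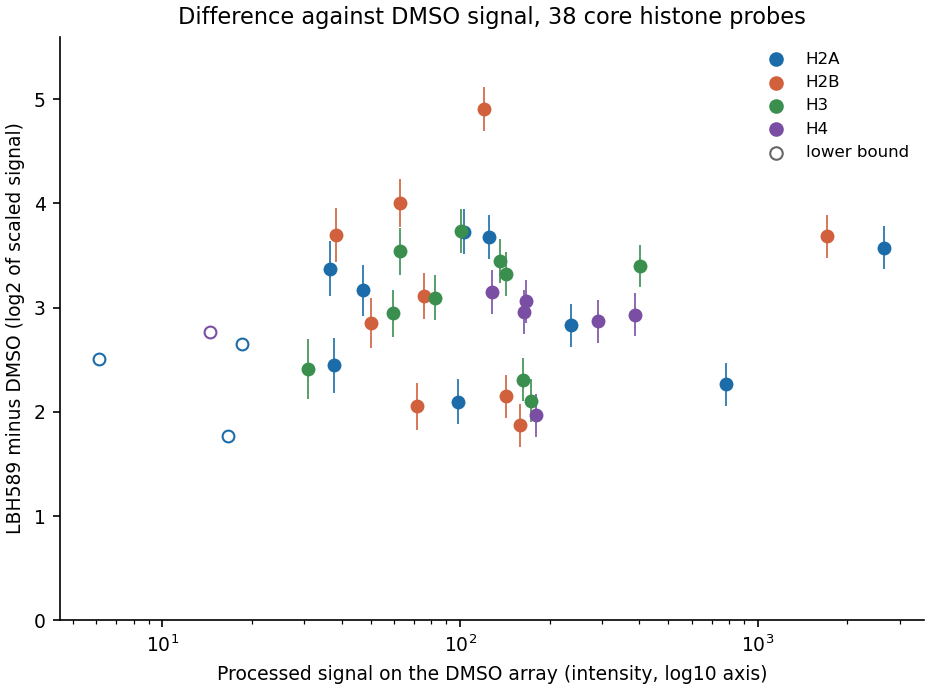
LBH589 minus DMSO of the log2 scaled signal against the processed signal on the DMSO array (intensity, log10 axis) for the 38 core histone probes, coloured by type, with spot errors as bars. Spearman's rho is 0.06 over all 38, and HIST1H2BG stands above it at 4.91.

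The genes lay in 5 groups on hg19, where a gap of over 200 kb began a new group. The largest, chr6:26020718-26285727, held 20 members over 265.0 kb with a median difference of 2.94. It held the largest measured difference (HIST1H2BG), the smallest measured one (HIST1H2BE) and the lowest bound (HIST1H2AC). Farther along chromosome 6, chr6:27100095-27115346 held 3 members with a median of 2.86 and chr6:27775257-27860963 held 8 with a median of 2.80. On chromosome 1, chr1:149784780-149859466 held 6 members with a median of 3.43, all measured on both arrays, and HIST3H2BB lay alone at chr1:228645808-228646259. In that group of 6, all but 1 lay between 3.06 and 3.69, and HIST2H2AB, at its far end, lay at 2.10. Whether the groups differ was not tested. The 18 members on the plus strand had a median of 2.88 and the 20 on the minus strand one of 3.16. HIST2H4B and HIST2H3A count here by their listed strands, plus and minus, which RefSeq gives the other way round. Their listed positions are therefore uncertain.

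Some neighbours had unlike values and others like ones. HIST1H3D and HIST1H2AD, which start side by side on one strand, differed by 3.40 and 3.37. HIST2H2AB and HIST2H2BE, which follow each other on one strand, differed by 2.10 and 3.69. There were 4 pairs of members on opposite strands with starts less than 1000 bases apart, an arrangement in which a shared stretch of DNA can serve as promoter for both. HIST1H2BG and HIST1H2AE, 276 bases apart, differed by 4.91 and at least 2.51. HIST1H2AD and HIST1H2BF, 316 bases apart, differed by 3.37 and 2.05, a gap of 1.32 ± 0.35. HIST1H3D, whose listed start lies beside that of HIST1H2AD, stood 323 bases from HIST1H2BF and exceeded it by 1.35 ± 0.30. HIST1H2BJ and HIST1H2AG, 242 bases apart, differed by 2.86 and at least 2.66. The 2 pairs whose genes differed by more than the errors share HIST1H2BF and so are 1 locus, and in the other 2 pairs one side was a bound.

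**Figure D5:**
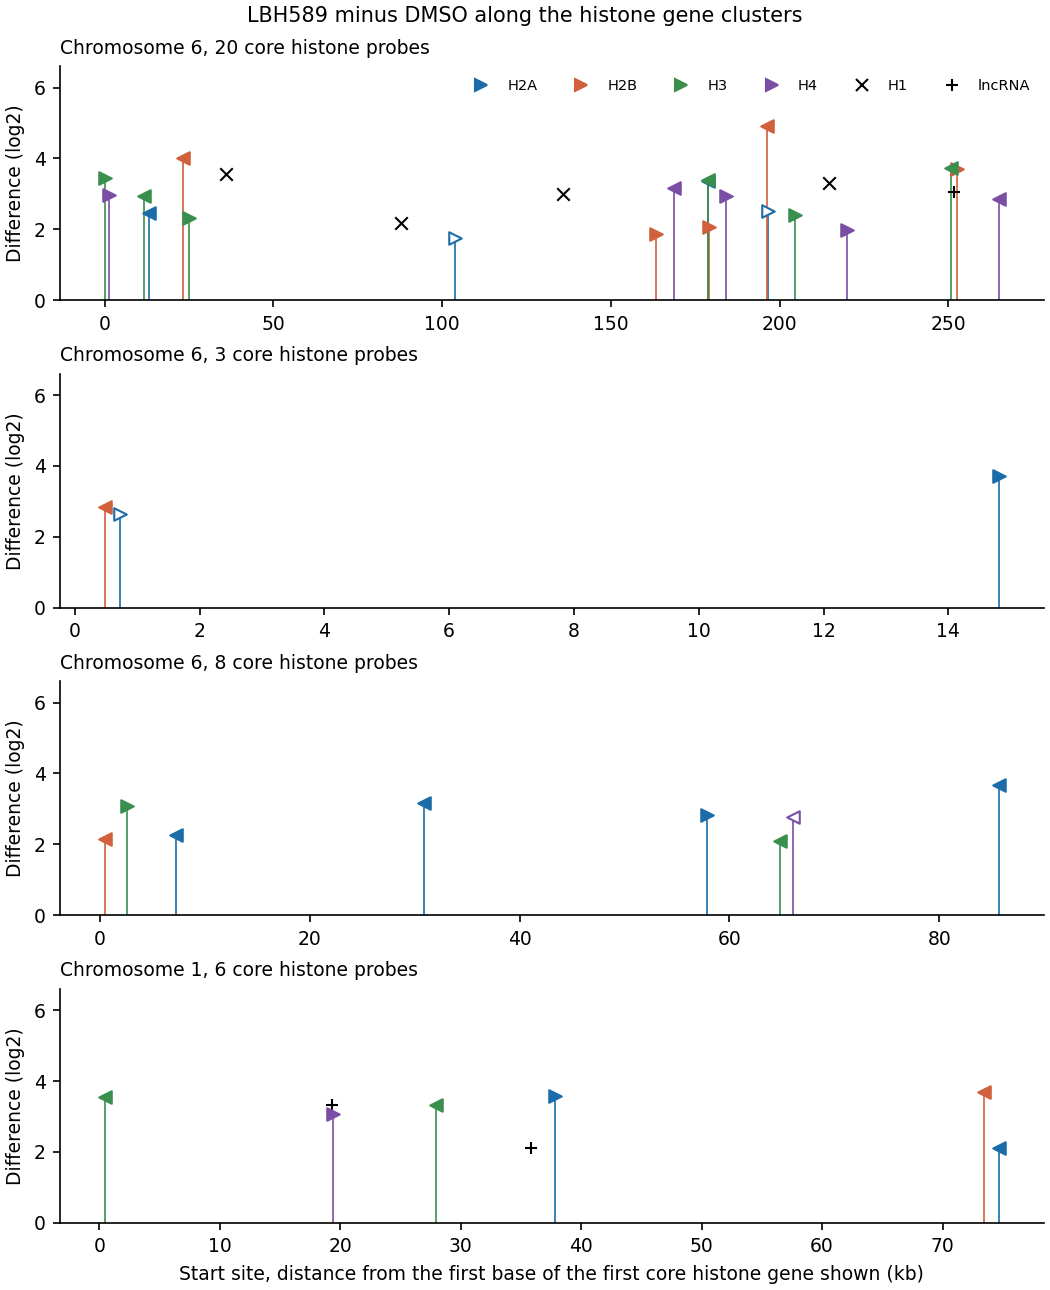
LBH589 minus DMSO of the log2 scaled signal (y axis) against the distance of each start from the first base of the first core histone gene of the group (x axis, kb), for the 4 groups with more than 1 member. Triangles point along the strand and open ones are lower bounds; crosses are H1 genes (the lowest, HIST1H1T, is a bound) and plus signs are lncRNAs, and the triangle of HIST1H2AD lies under that of HIST1H3D. Differences from below 2 to above 4 occur within the first group, where unlike values stand side by side in some places.

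Listed transcripts of other kinds within these spans were 4 linker histone H1 genes and 3 lncRNAs, all higher on the LBH589 array. H1 binds the DNA where it enters and leaves the nucleosome. HIST1H1C rose from 4779 to 32268, a difference of 3.55 ± 0.20. HIST1H1D and HIST1H1E differed by 3.31 and 2.98. HIST1H1T and HIST1H1A (the latter just outside the first span) were dim on the DMSO array and gave bounds of 2.17 and 2.12. The 5 H1 probes had a median of 2.98, near that of the core histones.

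Of the lncRNAs, BC079832, listed as bidirectional, starts between HIST1H3G and HIST1H2BI and went from 151 to 721, a difference of 3.05 ± 0.21. RP11-196G18.23, also bidirectional, starts beside the listed position of HIST2H4B, on the other strand. It went from 450.3 to 2595, a difference of 3.33 ± 0.20, against 3.06 for HIST2H4B. RefSeq gives HIST2H4B on the minus strand and the listing on the plus strand. Whether RP11-196G18.23 lies beside HIST2H4B or beside its twin copy is therefore not settled. RP11-196G18.22, intergenic, went from 47.3 to 116, a difference of 2.10 ± 0.25. Each lncRNA was chosen for the listing by the same contrast.

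Members whose probes lay at different places on the mRNA overlapped in their values. The 22 probes that held the whole stem-loop had a median difference of 2.94, the 7 broken off in it 2.96 and the 9 without it 3.06. Of the 9, the 5 measured on both arrays (HIST2H2AA4, HIST1H2AD, HIST2H2BE, HIST1H4D and HIST2H4B) lay between 3.06 and 3.69 with a median of 3.37. The 4 with bounds include HIST1H2AC, which had the lowest bound. The probes of HIST2H4B, HIST1H2AC, HIST1H2AE and HIST1H2AG matched the first 50 bases after the RefSeq start, so that these report the 5′ end. Their values were 3.06 for the first and bounds from 1.77 to 2.66 for the other 3. All 3 of those are also among the 4 dimmest members on the DMSO array.

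Probes of different histone genes shared sequence around the stem-loop. For 20 members the probe shared a run of at least 20 bases with that of another member, in 98 pairs, of which 33 were within a type. The longest run was 28 bases, between HIST1H3B (difference 2.94) and HIST1H2BB (4.0). The differences of sharing probes lay a median of 0.89 apart, against 0.68 over all 703 pairs of members and 0.73 over the 168 pairs of one type. HIST1H2BG and HIST1H3C shared 24 bases and lay 2.60 ± 0.30 apart. HIST1H2BG and HIST1H2BE shared 21 bases and lay 3.04 ± 0.30 apart. The 20 members that share such a run had a median of 3.02, and the 18 whose longest shared run is under 20 bases had one of 2.95. Some of those 18 share runs of up to 19 bases. No member had a cross-hybridisation entry in the lists, and how much of a signal comes from other histone mRNAs was not tested.

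Promoters were read from RefSeq (GRCh38.p14), where 35 of the 38 genes had a window; HIST1H2AH, HIST1H3I and HIST1H4A had none. The 120 bases before the start are shown for both ends of the H2B range, for the bright HIST2H2BE, and for HIST1H2BF, the weaker side of a divergent pair. Capitals mark the octamer ATTTGCAT, which the POU factor Oct-1 (POU2F1) binds, CCAAT, which NF-Y binds, and TATAAA, the TATA box, each searched on both strands (so that ATGCAAAT, ATTGG and TTTATA count too).
HIST1H2BG (H2BC8), chr6:26216689-26216808, minus strand: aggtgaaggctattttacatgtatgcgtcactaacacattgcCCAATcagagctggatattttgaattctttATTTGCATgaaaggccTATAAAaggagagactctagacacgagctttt
HIST2H2BE (H2BC21), chr1:149886683-149886802, minus strand: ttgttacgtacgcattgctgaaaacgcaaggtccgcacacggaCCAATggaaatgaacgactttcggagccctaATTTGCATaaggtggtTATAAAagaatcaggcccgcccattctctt
HIST1H2BF (H2BC7), chr6:26199396-26199515, plus strand: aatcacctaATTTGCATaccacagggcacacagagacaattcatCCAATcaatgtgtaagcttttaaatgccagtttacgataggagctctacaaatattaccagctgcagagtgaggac
HIST1H2BE (H2BC6), chr6:26183641-26183760, plus strand: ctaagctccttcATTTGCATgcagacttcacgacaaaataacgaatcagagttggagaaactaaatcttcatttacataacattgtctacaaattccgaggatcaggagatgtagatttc

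In HIST1H2BG the octamer began at position -48 and TATAAA at -32 before the RefSeq start, and in HIST2H2BE at -46 and -30. In HIST1H2BF and HIST1H2BE the octamer lay farther off, beginning at -111 and -108, with no TATAAA in the 120 bases shown. The other H2B genes did not split in this way. HIST1H2BB (difference 4.0) had its octamer at -120 and TATAAA at -30, and HIST1H2BI (3.70) had an octamer at -45 and no TATAAA. HIST1H2BJ (2.86) had them at -47 and -28. HIST1H2BL (2.15) had TATAAA at -30 and no octamer, and HIST3H2BB (3.11) had neither. RefSeq starts can differ from those used in these cells.

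Over 250 bases before the start, the octamer stood in 17 of 35 core histone genes (48.6%) against 2.03% of 27305 genes in the table. By type it stood in 9 of 11 H2A genes, 7 of 9 H2B genes, 1 of 9 H3 genes and 0 of 6 H4 genes. The windows of divergent H2A and H2B genes overlap, so 1 octamer can count for both. The single H3 gene was HIST1H3D, through the start it shares with HIST1H2AD. CCAAT stood in 31 of 35 (88.6%) against 37.0%, and in 2 of 6 H4 genes, and TATAAA in 23 of 35 (65.7%) against 13.0%.

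The differences of genes with and without these letters overlapped. Members measured on both arrays had a median of 3.12 with the octamer (n = 14) and 3.1 without it (n = 17). With TATAAA the median was 3.15 (n = 19) and without it 3.0 (n = 12), where HIST1H3G at 3.73 and HIST1H4F at 1.97 were the ends of the latter. The 4 genes without CCAAT, all H4, lay between 2.87 and 3.15.

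Genes of the surrounding pathways can be described only where a probe was listed, which a probe with a small difference was not. Of all 58921 probes, 1954 (3.32%) had an mRNA row used here. The larger number includes lncRNA probes and the lists count genes, so the counts below cannot be read as high or low. Of 15 genes of histone variants outside the clusters, which give polyadenylated mRNAs in most phases of the cycle, 2 had a listed probe and both were lower. H2AFZ, the gene of H2A.Z, went from 31580 to 4198, a difference of -2.11 ± 0.20. H2AFY, the gene of macroH2A1, went from 7615 to 1013, also a difference of -2.11 ± 0.20. Both thus ran opposite to all 38 clustered genes, but the same contrast chose all of these for the lists, so nothing is read from this.

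Of 21 histone chaperone genes, 2 had a listed probe and both were lower. RBBP4, which binds H3 and H4 in the chromatin assembly factor CAF-1, had a difference of -2.29 ± 0.21, and SSRP1, a subunit of the H2A and H2B chaperone FACT, had one of -2.07 ± 0.20. Of 27 genes of S phase and DNA replication, 2 had a listed probe and both were lower. TYMS, thymidylate synthase, went from 21628 to 805, a difference of -3.95 ± 0.20, and MCM7, a subunit of the replicative helicase, had a difference of -2.47. None of 22 genes for the transcription and 3′ processing of histone mRNAs (0 of 22) and none of 12 histone deacetylase genes (0 of 12) had a listed probe.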

How the data were processed

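RNA of 1 LBH589-treated and 1 DMSO-treated SK-NEP-1 culture was hybridized to 1 array each. The authors deposited scanner files (Agilent Feature Extraction, version 11.0.1.1 in the file headers and 10.7.3.1 in the submitters' processing notes), which give each spot's intensity (processed signal, error, median pixel signal and background) and flags of 0 or 1. The authors also deposited a log2 table of processed values for 41891 probes with a floor of 5. Its normalization is not given in the sources used here.

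Control probes, negative probes and spots flagged as outliers were left out. Each log2 processed signal was set against its array's 75th percentile, and DMSO was subtracted from LBH589. Where a probe was well above background on 1 array only, the dim side took the lowest signal well above background there, or its own value if that was higher. The 2-fold and 5-fold thresholds follow the study. No test was made, since each condition has 1 array.

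Members, gene lists and motifs were chosen with earlier results of these data known. The members given with both signals are the 3 most and 3 least risen per type and both of each divergent pair. All 38 may be named, as may listed genes of the lists and listed transcripts within the spans. Gene names, probe sequences and hg19 positions (counted from 1) came from the rows used of the study's lists, 1002, 952, 1406 and 1363 for higher and lower mRNAs and higher and lower lncRNAs. Spearman and Pearson coefficients are descriptions. The calculation was tested on simulated data. Alternatives were other scalings (quantile, none, another percentile), normexp with an offset of 50 on the median pixel signal followed by quantile normalization (the mean signal that had been planned was not used here), the median pixel signal, the deposited table, dim signals kept instead of bounds, a floor of 5, other filters on dim probes, and outliers kept. R 4.3.3, limma 3.58.1, Python 3.11.15, numpy 2.4.6, pandas 2.3.3 and matplotlib 3.10.9 were used.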

Additional observations from a re-analysis of the deposited data

How the results depend on the processing

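All core histone probes that had a value were higher with LBH589 under each of the 11 other settings, the smallest difference being 0.48 for HIST1H2AC after normexp. The list of higher mRNAs from which they were chosen had set this direction, so nothing is read from it. Of 414 single-probe values under these settings, 312 moved by less than the spot error, 102 moved by more and 0 changed sign. Part of the 312 could not move, because the other filters on dim probes (38 and 34 values) reuse the main values. Dim signals kept or floored at 5 can alter only the 4 members with bounds. The total is therefore no measure of how steady the values are. Most values moved under 3 settings: no scaling (37 of 38 probes), normexp of the median pixel signal followed by quantile normalization (34), and the median pixel signal alone (26), while quantile normalization alone moved 0. With normexp the member median was 2.30, with 2.04 for H2A, 2.30 for H2B, 2.26 for H3 and 2.54 for H4; 35 members were at least 2-fold and 18 at least 5-fold higher, and 2498 and 408 of all probes passed 2-fold and 5-fold. Without scaling, which put the median of all probes at -0.83, the member median was 2.15, with 1.95 for H2A, 2.31 for H2B, 2.41 for H3 and 2.13 for H4; 37 members were at least 2-fold and 15 at least 5-fold higher, and 1802 and 477 of all probes passed. The members stood 2.99 above the median of all probes with and without scaling. This gap could not change, because scaling subtracts the same value from every probe of an array. With the median pixel signal the medians were 2.47 for H2A, 2.85 for H2B and 2.75 for H3, and 647 of all probes passed 5-fold. With dim signals kept instead of bounds the H2A median was 3.01 and 1687 of all probes passed 5-fold. It was also 3.01 with signals floored at 5, and 3.17 over the probes detected on both. With no filter on dim probes 8147 of all probes passed 2-fold. Spearman's rho between the difference and the DMSO signal, 0.06 over all members, was -0.13 over those detected on both, and 0.35 with the mean of both arrays on the x axis. The causes of these shifts were not tested. No paired analysis was possible because each condition has 1 array. The number of arrays limits every value, and the 4 members near background on the DMSO array have bounds only.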
